A study of Mus musculus with 5 samples.

Results

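The comparison set 3 embryonic stem (ES) cell libraries of autoimmune-prone mouse strains, NOD1, NOD5 and NZB, against 2 libraries of other strains, B6 and the library labelled v6.5. All 5 libraries of the series entered it, 1 library per labelled line, and each group was taken from the strain in the labels and the design text, which names NOD and NZB as autoimmune-prone. NOD mice develop autoimmune diabetes and NZB mice develop autoimmune hemolytic anemia. B6 is C57BL/6, and v6.5 is labelled 129SvJae6C57BL6, a mix of 129 and C57BL/6. No line carried an engineered allele or was treated in this comparison, and per the study's methods all were kept without feeder cells in 2i medium, which holds inhibitors of MEK and GSK3. The genes described are those in which every prone library lay above, or every one lay below, both other libraries. They numbered 6271 of 13421 genes tested, of 24016 in the table.

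Several limits belong to the groups themselves. The 2 NOD lines share 1 strain, each strain had 1 or 2 lines, and p-values measure only the spread between these libraries. Culture, sequencing run and strain cannot be told apart. The mapping reference is a C57BL/6 genome, so distance from the reference follows the same 2 groups and cannot be told apart from expression. The command kept in the table's header names 2 directories for B6 and none for v6.5, and gives the NOD5 library a name that joins 5 and 6, so which line each of these held is not certain.

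ES cells are grown from the inner cell mass of the blastocyst and express little of the immune system's machinery. Class I and class II molecules of the major histocompatibility complex (MHC) hold peptides at the cell surface for T cells, and class II is normally limited to antigen-presenting cells. Pattern recognition receptors such as Aim2 and Nod1 sense foreign DNA and bacterial cell wall in the cytoplasm. The NOD, NZB and C57BL/6 strains carry different MHC haplotypes, and the class II region of NOD is a major contributor to its diabetes.

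Values are rescaled read counts: reads per gene, set by the authors to the same total in every library and then divided by a factor (TMM) that sets the typical gene equal across libraries. The factors were 1.028 for NOD1, 1.185 for NOD5 and 1.208 for NZB, against 0.6485 for B6 and 1.048 for v6.5. Recovered reads per library ranged from 7713133 in NOD1 to 21387796 in NOD5, and the ribosomal precursor Rn45s took 1.95% to 14.3% of the reads of the prone libraries, against 41.4% in B6 and 9.75% in v6.5. As ES cells, all 5 libraries expressed Pou5f1, Sox2 and Nanog. Pou5f1, the gene of Oct4, stood at 6730, 10295 and 5669 in NOD1, NOD5 and NZB, against 3515 in B6 and 4151 in v6.5. The leukocyte marker Ptprc stood at 0, 0.481 and 0, against 6.97 and 5.39. It was too low to test, with 1 read in the prone group and 9 in the other. The 24 listed leukocyte genes summed to 962, 687 and 715 in NOD1, NOD5 and NZB, against 1489 in B6 and 578 in v6.5. Fibroblast and mesenchyme markers differed within both groups: summed over 46 listed genes they came to 21871, 18823 and 57393 in NOD1, NOD5 and NZB, against 81919 in B6 and 29249 in v6.5, and Col1a1, a fibrillar collagen, had 35.2, 46.9 and 4005, against 1850 and 160. Of 42 of them tested, 1 lay above and 3 below in all prone libraries, with a median log2 difference of -1.21, and their part in the results was not tested. In these bulk libraries fewer cells of a type and less RNA per cell cannot be told apart.

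Every prone library lay above both others in 3215 genes (24.0% of those tested) and below both in 3056 (22.8%). Most of these separations were small. On the log2 scale the gap between the nearest libraries of the 2 groups had a median of 0.40 above and 0.35 below, which is 1.32-fold and 1.27-fold. The gap exceeded 1, a 2-fold separation, in 472 genes above (3.52%) and 343 below (2.56%), and exceeded 3 in 24 and 20. Of the genes above, 355 passed the filter on low counts only through the prone libraries, and of those below 78 passed only through the other libraries. Another 7951 genes had reads but were too low to test, with 418 above and 1426 below, and 2644 had no read at all.

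The difference of group means was tested with limma-trend across all 13421 genes. It called 288 genes higher in the prone lines (2.15% of those tested) and 284 lower (2.12%) at a Benjamini-Hochberg adjusted p under 0.05, and the groups overlapped in 0 of these 572. Called changes had a log2 size of 0.96 to 7.66. On the deposited scale with no further factor the calls were 1425 higher and 226 lower, and the median of all genes moved by 0.46 on the log2 scale. Leaving out libraries changed the calls more than the differences. Leaving out B6 or v6.5 leaves 1 library in its group, so that the prone libraries alone give the spread and the lone library is assumed to vary like them. Without B6 the test called 0 genes (1849 had an unadjusted p below 0.05), and without v6.5 it called 2 higher and 0 lower. Calls came to 5 without NOD5, 87 without NOD1 and 1389 without NZB. With the NOD lines averaged to 1 sample, so that 2 strains faced 2 lines, 61 genes were higher and 77 lower. On recovered reads, edgeR's quasi-likelihood test also called 357 of the 572, and DESeq2 all 572. Of the 113 called genes chosen for naming, 0 kept the call without B6 and 2 kept it without v6.5, while their log2 differences came to a median of 97.3% (range 61.5% to 121%) and 102% (77.9% to 137%) of the value with all libraries. None changed direction under any alternative run. As the groups overlapped in none of them, leaving out a library, averaging the NOD lines or changing the pseudocount could hardly have reversed a direction. The log2 difference of H2-Eb1, for example, was 4.60 without B6, against 4.55 with it.

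**Figure D1:**
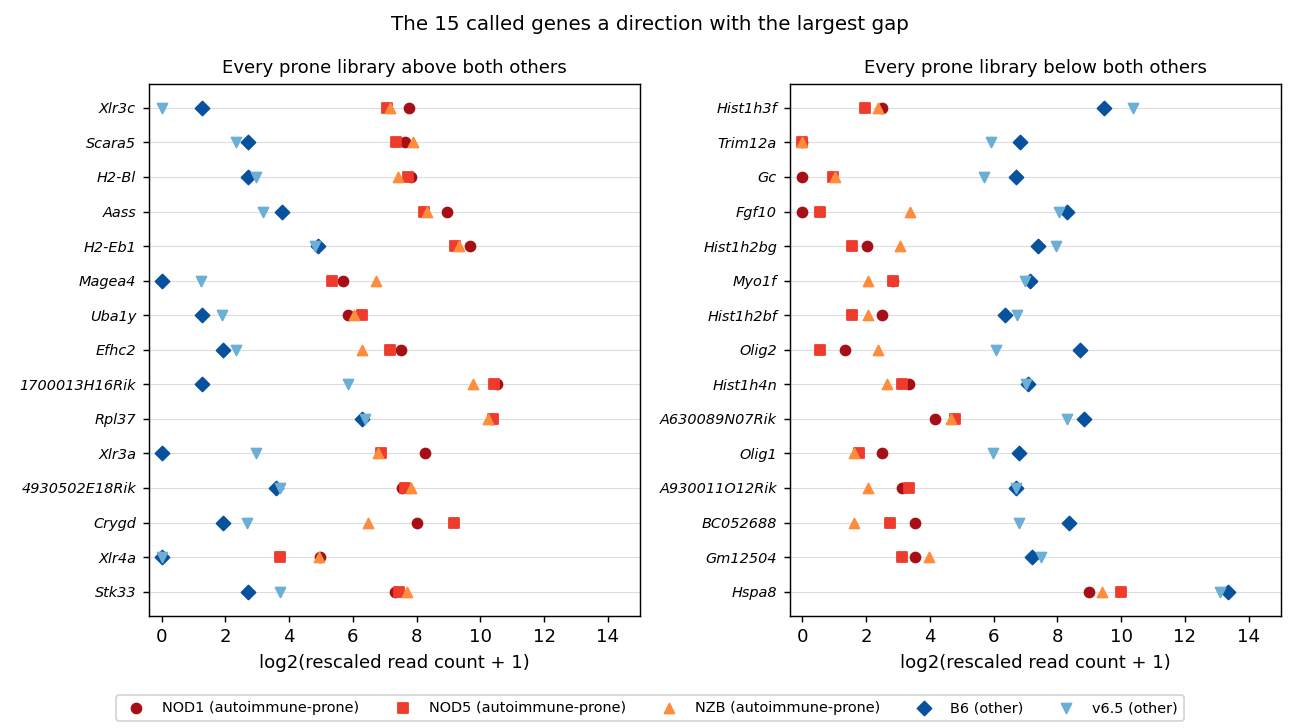
Rescaled read counts on a log2(value + 1) axis for the 15 called genes in each direction with the largest gap. Each symbol is 1 library, with the 3 autoimmune-prone libraries in red and orange and the 2 others in blue, and in each row the 2 groups are apart, most widely in Hist1h3f.

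Outside the listed pathways the widest gaps held genes of varied roles. Scara5, a scavenger receptor for ferritin, had 198, 162 and 234 rescaled counts in NOD1, NOD5 and NZB, against 5.58 in B6 and 4.05 in v6.5 (log2 difference 5.09 ± 0.45, adjusted p = 0.00786). Aass, the first enzyme of lysine breakdown, had 495, 298 and 317, against 12.6 and 8.09 (log2 difference 5.02 ± 0.42, adjusted p = 0.00786). Both were nearly silent in the other libraries and moderate in every prone one. Gc, the vitamin D carrier, lay at the other end, with 0, 0.962 and 1.05, against 102 and 51.2 (ratio of pooled reads, other over prone, 93.7, exact 95% counting interval 31.2 to 461; limma adjusted p = 0.028). Myo1f, a myosin of immune cells, fell to 6.13, 6.23 and 3.15, against 141 and 125 (adjusted p = 0.0215). Some further calls were chosen after their values were seen. Cd63, a tetraspanin of late endosomes, rose to 1081, 1021 and 786, against 144 and 120, and Slc30a1, a zinc exporter, to 848, 951 and 896, against 116 and 177 (adjusted p = 0.00937 and 0.0143). Sfrp1, a secreted Wnt antagonist, fell to 623, 1094 and 1071, against 6451 and 5104, and Nrcam, a neural adhesion molecule, to 24.5, 15.3 and 34.6, against 420 and 233 (adjusted p = 0.0175 and 0.0226). In each of these 4 the groups were several-fold apart.

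Class II MHC genes of the prone lines held some of the widest gaps in the higher direction. H2-Eb1, the beta chain of the I-E class II molecule (chr17:34442812-34453619 on mm9), had 813, 593 and 647 rescaled counts in NOD1, NOD5 and NZB, against 29.3 in B6 and 27.0 in v6.5. The 3 prone libraries were close together and about as far above the others in NZB as in NOD, with a log2 difference of 4.55 ± 0.30 (SE; adjusted p = 0.00309), which stayed past the threshold with the NOD lines averaged (adjusted p = 0.0173). H2-Aa, the alpha chain of I-A, was far less abundant, with 23, 32.6 and 22, against 0 in B6 and 1.35 in v6.5. Only 1 read of it was found in the other group, so its size is loosely bounded (ratio of pooled reads 41.1, exact 95% counting interval 7.21 to 1638; limma adjusted p = 0.0431). Its call was lost with the NOD lines averaged (adjusted p = 0.0835) and by edgeR's quasi-likelihood test (adjusted p = 0.0526). H2-DMa, which loads peptides onto class II, lay above at 32.2, 28.7 and 25.2, against 4.18 and 2.70, and H2-Ab1, the partner chain of H2-Aa, at 103, 73.8 and 157, against 34.8 and 45.8. Neither passed the test (adjusted p = 0.0576 and 0.113). Cd74, the invariant chain that escorts class II molecules, lay on the other side, with 16.8, 14.9 and 15.7 in the prone libraries, against 36.2 and 52.6. Ciita, the master activator of class II genes, overlapped, with 19.9, 20.6 and 3.15, against 2.79 and 6.74. Over the class II list 2 of 11 tested genes were called higher and 0 lower, beside 2.15% and 2.12% over all genes. On this list 4 lay above and 2 below, beside 24.0% and 22.8% over all genes. Of the 4 above, 2 had passed the filter on low counts only through the prone libraries. The median log2 difference was 1.15, beside 0.02 over all genes.

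Promoters of the called class II genes are shown because class II promoters share a Y box, the letters ATTGG or CCAAT, read by the NF-Y factor. Capitals mark those letters on either strand in RefSeq windows of 300 bases on GRCm38.p6, from 250 bases before the start to 50 after it, for H2-Eb1 at chr17:34305617-34305916 on the plus strand and H2-Aa at chr17:34287774-34288073 on the minus strand.
H2-Eb1: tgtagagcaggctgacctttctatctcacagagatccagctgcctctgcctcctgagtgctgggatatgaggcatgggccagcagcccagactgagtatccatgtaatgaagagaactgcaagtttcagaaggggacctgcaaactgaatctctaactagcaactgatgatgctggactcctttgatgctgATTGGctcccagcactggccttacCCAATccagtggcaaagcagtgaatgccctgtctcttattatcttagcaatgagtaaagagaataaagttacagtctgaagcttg
H2-Aa: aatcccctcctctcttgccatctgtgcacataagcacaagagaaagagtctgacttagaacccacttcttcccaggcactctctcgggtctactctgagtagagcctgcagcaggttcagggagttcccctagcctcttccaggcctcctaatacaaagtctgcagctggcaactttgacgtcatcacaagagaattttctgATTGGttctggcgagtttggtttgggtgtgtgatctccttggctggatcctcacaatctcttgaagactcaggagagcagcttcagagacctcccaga
The H2-Eb1 window held 2 matches and the H2-Aa window 1. Compared base by base from the window start, with no alignment, 62 of 300 positions were equal. That count cannot show stretches shared at shifted positions. The letters are common: 39.4% of the 10604 tested genes with a window held them, as did 41.5% of those above and 41.4% of those below with a gap over 1. The reference strain sequence is shown, and the sequence of NOD and NZB was not used here.

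Class I genes were split. H2-Bl, a nonclassical class I gene named for the blastocyst, rose 28.3-fold, with 225, 211 and 171 in the prone libraries, against 5.58 in B6 and 6.74 in v6.5 (log2 difference 4.82 ± 0.43, adjusted p = 0.00786). H2-T23, which encodes the Qa-1 molecule, had 23, 18.2 and 13.6, against 1.39 and 0, and H2-Q4 had 81.2, 53.7 and 131, against 19.5 and 10.8. Both lay above without passing the test (adjusted p = 0.0595 and 0.0559). The classical heavy chains did not follow. H2-K1 lay slightly below, with 145, 151 and 135, against 174 and 255, and H2-D1 overlapped, with 306, 296 and 98.6, against 131 and 198. B2m, the light chain of class I molecules, overlapped too, with 577, 403 and 333, against 747 and 445. Class I genes are near copies of each other: 21.8% of the 50-base stretches of H2-Q4 and 32.0% of those of H2-Q6 also occur in another gene, so reads between such genes are uncertain. Over 18 tested genes 1 was called higher and 0 lower, beside 2.15% and 2.12% over all genes. Of these 18, 6 lay above and 2 below, beside 24.0% and 22.8% over all genes. The median log2 difference was 0.56. All 6 above had passed the filter only through the prone libraries.

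Genes of antigen processing lay on both sides. Pdia3, which folds class I chains in the loading complex, fell to 3182, 3061 and 2509 in the prone libraries, against 9679 in B6 and 6399 in v6.5 (log2 difference -1.44 ± 0.26, adjusted p = 0.0388). Psme1 and Psme3, activators of the proteasome, lay below in all 3, Psme1 with 444, 362 and 327, against 633 and 581. The peptide transporter genes lay above: Tap2 had 158, 60.8 and 32.5, against 15.3 and 13.5, and Tap1 had 387, 69.9 and 57.7, against 53 and 6.74, with NOD1 well above the rest (adjusted p = 0.106 and 0.176). Of 12 antigen processing genes tested, 2 lay above and 5 below, beside 24.0% and 22.8% over all genes. Called were 0 higher and 1 lower, beside 2.15% and 2.12% over all genes. The median was -0.49, which the deposited scale moved to -0.03.

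**Figure D2:**
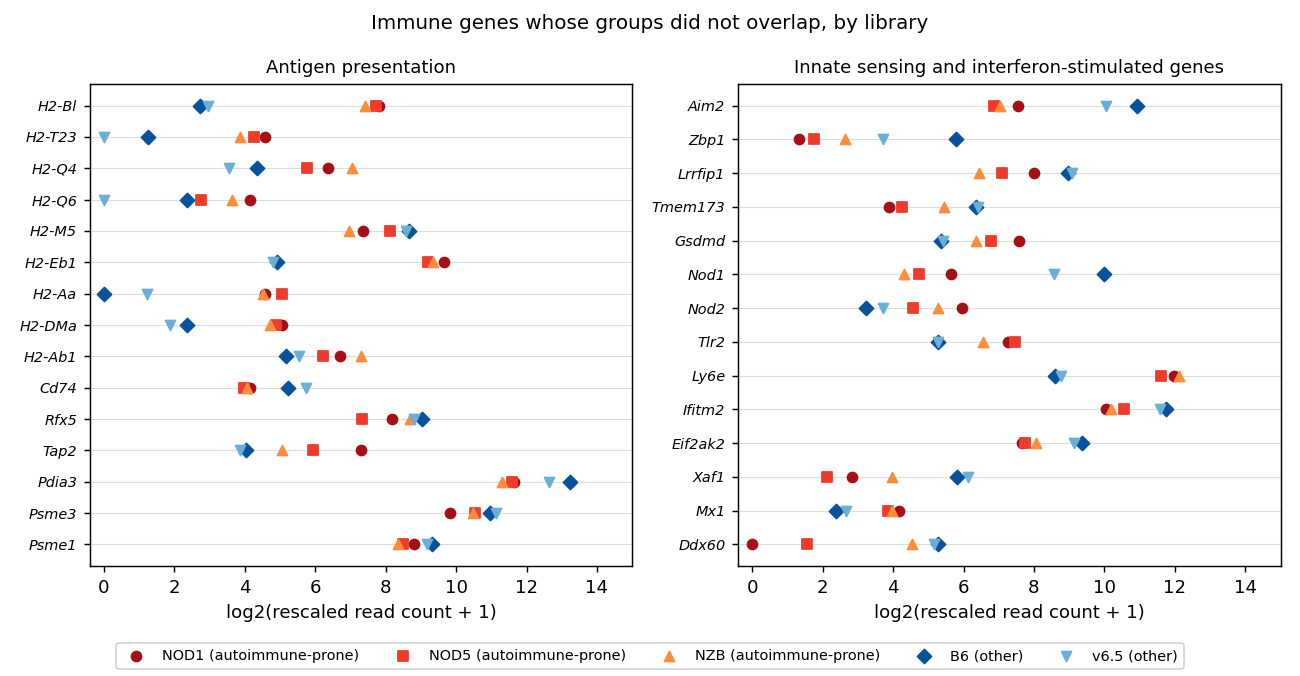
Rescaled read counts, log2(value + 1), of immune genes whose groups did not overlap, with antigen presentation on the left and innate sensing with interferon-stimulated genes on the right. Red and orange symbols are the prone libraries and blue symbols the others. H2-Bl and H2-Eb1 have the widest gaps above, and Nod1 and Aim2 the widest below.

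The innate receptors Aim2 and Nod1 fell in the prone lines, and other receptors lay on either side. Aim2, the DNA receptor of an inflammasome (chr1:175350735-175396167, mm9), had 187, 115 and 131, against 1942 in B6 and 1054 in v6.5. All 3 prone libraries sat far below both others (log2 difference -3.33 ± 0.36, adjusted p = 0.0149). Nod1, the receptor of a bacterial peptidoglycan fragment (chr6:54873936-54922606), had 49.0, 25.4 and 18.9, against 1015 and 379. It was lowest in NZB and fell by 4.39 on the log2 scale (SE 0.57, adjusted p = 0.0204). Further DNA sensing genes lay below without passing the test. Zbp1, a sensor of Z-form nucleic acid, had 1.53, 2.40 and 5.25, against 54.4 and 12.1. Tmem173, the STING adaptor, had 13.8, 18.2 and 43.0, against 80.8 and 83.6, and Lrrfip1 had 254, 136 and 85.0, against 500 and 537 (adjusted p = 0.115, 0.106 and 0.0623 in that order). Gsdmd, the pore former of pyroptosis, lay above at 190, 108 and 80.8, against 40.4 and 41.8 (adjusted p = 0.0982). Of 11 tested genes on this list 8 lay below and 2 above, beside 22.8% and 24.0% over all genes. Of these 11, 1 was called lower and 0 higher, beside 2.12% and 2.15% over all genes, and the median was -1.46. Other bacterial receptors lay above without passing the test. Tlr2, which senses bacterial lipoproteins, had 153, 177 and 92.3, against 37.6 and 37.7, and Nod2 had 61.3, 22.5 and 37.8, against 8.36 and 12.1 (adjusted p = 0.0565 and 0.13). Over 15 Toll-like and other receptors 1 gene, Nod1, was called lower, 0 were called higher, 3 lay above and 2 below, and the median was -0.06, which the deposited scale turned to 0.40.

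Interferon-stimulated genes moved both ways. Ly6e, a membrane protein that restricts some viruses, had 4027, 3097 and 4432, against 390 in B6 and 437 in v6.5. Every prone library was several times higher, with a log2 difference of 3.20 ± 0.24 (adjusted p = 0.00487). Ifitm2, a block to virus entry, fell to 1052, 1499 and 1170, against 3436 and 3078 (log2 difference -1.41 ± 0.24, adjusted p = 0.0324), and 48.5% of its 50-base stretches also occur in other genes. Eif2ak2, the double-stranded RNA kinase PKR, fell to 201, 213 and 268, against 655 and 561 (log2 difference -1.42 ± 0.27, adjusted p = 0.0405). Xaf1 lay below at 6.13, 3.35 and 14.7, against 55.8 and 68.7, and Mx1 lay above at low counts of 16.8, 13.4 and 14.7, against 4.18 and 5.39. Of 24 tested genes 4 lay above and 8 below, beside 24.0% and 22.8% over all genes. Called were 1 higher and 2 lower, beside 2.15% and 2.12% over all genes. The median was -0.24, which the deposited scale turned to 0.19. Trim12a, a relative of the antiviral Trim5 genes (chr7:111448411-111464009), had no read in any prone library, against 112 and 59.3. That is at least 105-fold lower against a floor of 3 reads over the group (limma adjusted p = 0.0226). Its relative Trim12c, chosen after its values were seen, overlapped, with 59.7, 27.8 and 277, against 54.4 and 106.

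Of 12 tested complement and Fc receptor genes 6 lay above, 1 below and 0 were called, and 3 of the 6 had passed the filter only through the prone libraries. In lists of this size the 2.15% and 2.12% called over all genes amount to less than 1 gene. Over all genes 24.0% lay above and 22.8% below. Fcgr3, a low-affinity receptor for IgG, had 76.6, 32.1 and 45.1, against 8.36 in B6 and 9.44 in v6.5, and C2, a complement protease gene of the MHC region, had 173, 55.1 and 142, against 18.1 and 20.2 (adjusted p = 0.0682 and 0.0563). Kitl, the ligand of the Kit receptor, was the 1 called gene of 17 cytokines and chemokines. It rose to 109, 310 and 211, against 29.3 and 37.7 (log2 difference 2.50 ± 0.50, adjusted p = 0.0439). Tgfb1, an immune-suppressing cytokine, lay below at 12.2, 7.19 and 14.7, against 37.6 and 117 (adjusted p = 0.0776). Cd80, a T cell costimulator chosen after its values were seen, fell to 16.8, 21.1 and 11.5, against 227 and 108 (log2 difference -3.21 ± 0.55, adjusted p = 0.0331).

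Among candidate genes of the diseases, those called were class II genes. Of 24 tested genes near type 1 diabetes loci 8 lay above and 4 below, beside 24.0% and 22.8% over all genes. Of the 8 above, 2 had passed the filter on low counts only through the prone libraries. Called higher were 2 (8.33%, beside 2.15% over all genes), H2-Eb1 and H2-Aa, both described above. Ptpn22, a phosphatase of lymphocyte receptor signalling, had 19.9, 39.3 and 22, against 11.1 in B6 and 9.44 in v6.5, Ormdl3 had 312, 302 and 259, against 158 and 121, and Bach2, a repressor in lymphocytes, had 32.2, 54.1 and 52.5, against 213 and 91.7. All 3 missed the threshold (adjusted p = 0.242, 0.0767 and 0.101). Of 18 tested lupus candidate genes 6 lay above, 4 below and 0 were called by limma, a count too small to set apart from the share over all genes. Lyn, a Src-family kinase, lay below at 55.1, 66.6 and 58.8, against 94.8 and 120, and Ets1 lay above at 33.7, 68.0 and 67.1, against 23.7 and 14.8. The medians were 0.10 for the diabetes list and -0.21 for the lupus list, the second turned to 0.25 by the deposited scale.

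**Figure D3:**
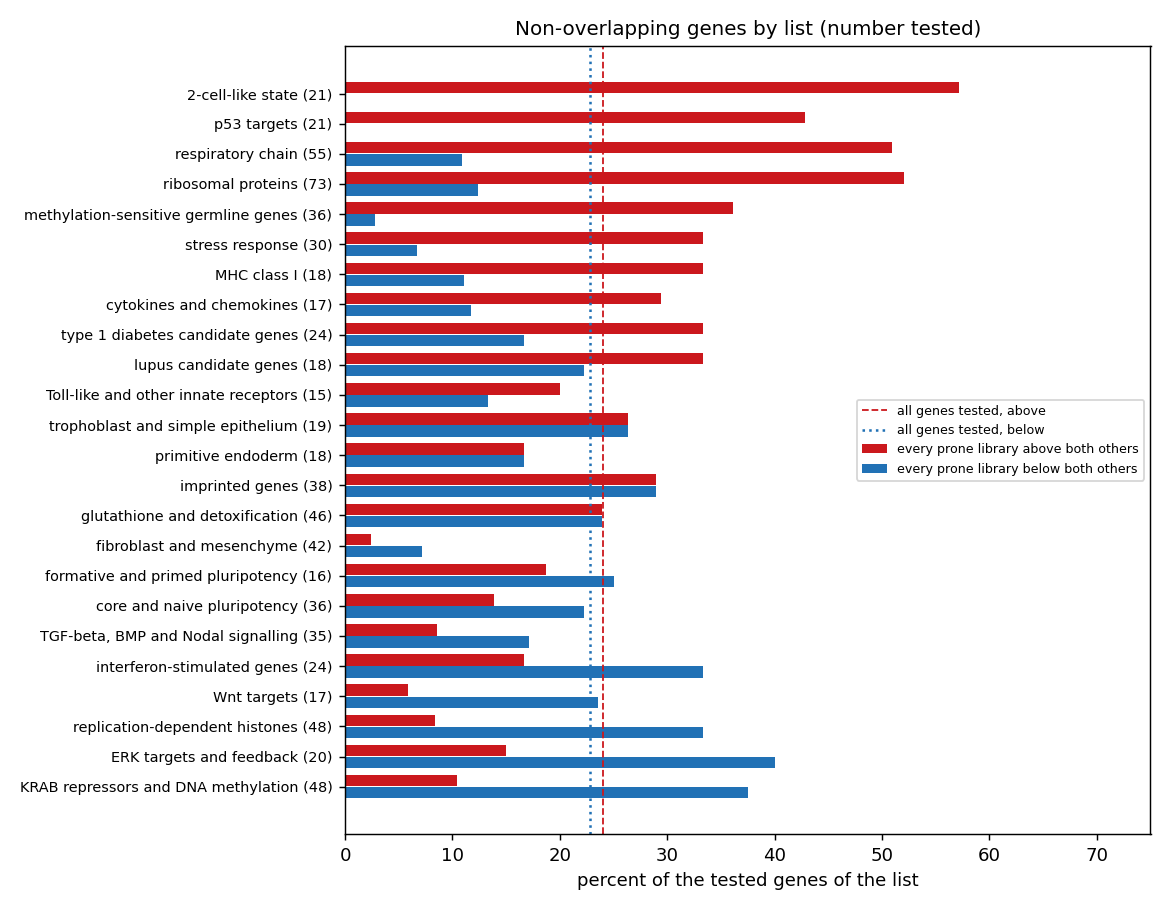
Percent of the tested genes of each list in which every prone library lay above (red) or below (blue) both other libraries, for lists with at least 15 tested genes. Dashed and dotted lines give the same percents over all 13421 genes, 24.0% and 22.8%. The 2-cell-like, ribosomal protein and respiratory chain lists reach furthest in red, and the ERK and KRAB lists in blue. Of the 12 genes above on the 2-cell-like list, 10 had passed the filter on low counts only through the prone libraries. On that list 0 genes were called.

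The widest gap above belonged to X-linked germline genes. Xlr3c, of the multicopy X-linked lymphocyte regulated family, had 217, 134 and 142, against 1.39 in B6 and 0 in v6.5 (ratio of pooled reads 220, exact 95% counting interval 39.3 to 8691; limma adjusted p = 0.00937). Xlr3a had 308, 118 and 110, against 0 and 6.74, and rose by 5.84 ± 0.93 (adjusted p = 0.0288). Xlr4a, at 30.6, 12.0 and 29.4, had no read in either other library, at least 9.61-fold higher against a floor of 3 reads (limma adjusted p = 0.0418). Pnma5, a paraneoplastic antigen relative at 1390, 659 and 1114, against 41.8 and 106, formed a run of 4 neighbouring tested genes with gaps over 1 on chromosome X together with Xlr4a, Xlr3a and Xlr4b. The Xlr copies cannot be told apart well: 44.8% to 77.7% of their 50-base stretches occur in another gene. A second X-linked run joined 4930502E18Rik, 1700013H16Rik, Zfp36l3 and Xlr. In it 1700013H16Rik, a gene with no named function, had 1473, 1371 and 879, against 1.39 in B6 and 56.6 in v6.5, so the other libraries differed from each other too (log2 difference 6.69 ± 1.13, adjusted p = 0.0325). Magea4, a testis antigen on X, had 50.5, 39.8 and 105, against 0 and 1.35.

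Germline genes that DNA methylation silences in somatic cells were called in both directions off the X chromosome. Fkbp6, needed for meiosis and piRNA formation, had 756, 555 and 409, against 30.7 in B6 and 71.4 in v6.5, all 3 prone libraries being far higher (log2 difference 3.54 ± 0.44, adjusted p = 0.0195). Tdrd9 and Gpat2 of the piRNA pathway, neither of them on the list, also rose. Tdrd9 was chosen after its values were seen, and Gpat2 was named as part of a run of neighbours. Gpat2 had 931, 467 and 294, against 23.7 and 51.2, and Tdrd9 had 76.6, 44.6 and 96.5, against 11.1 and 9.44 (adjusted p = 0.023 and 0.047). Tex15, a piRNA pathway gene that is on the list, fell to 498, 671 and 561, against 1656 and 2421 (log2 difference -1.81 ± 0.26, adjusted p = 0.0231). Over 36 tested genes 4 were called higher (Xlr3c, Xlr4a, Xlr3a and Fkbp6) and 1 lower, beside 2.15% and 2.12% over all genes. Of these 36, 13 lay above and 1 below, beside 24.0% and 22.8% over all genes, and the median was 1.19. Of the 13 above, 6 passed the filter on low counts only through the prone libraries. Among the 25 not on X, 1 was called higher and 1 lower, and 7 lay above, a share close to the 24.0% over all genes. Repressors that act with DNA methylation were placed differently, with 5 of 48 tested above and 18 below, beside 24.0% and 22.8% over all genes. Of these 48, 0 were called, and the median was -0.39, turned to 0.08 by the deposited scale. Zfp809, a KRAB zinc finger that silences retroviruses, lay below at 237, 301 and 145, against 569 and 624 (adjusted p = 0.0612).

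Lens crystallins had their highest values in the NOD lines. Crygd, a lens gamma crystallin, had 256 and 572 in NOD1 and NOD5 and 88.1 in NZB, against 2.79 in B6 and 5.39 in v6.5 (log2 difference 5.58 ± 0.78, adjusted p = 0.023). Cryga had 52.1, 86.7 and 24.1, against 0 and 2.70 (ratio of pooled reads 47.0, exact 95% counting interval 12.9 to 390; limma adjusted p = 0.0416). Of 16 listed crystallins 6 were tested, and the 5 that lay above had passed the filter only through the prone libraries, so their number is no evidence of a direction. Gamma crystallins are copies of one another, with 42.3% of the stretches of Cryga and 48.3% of those of Cryge found in other genes. The promoters of the called pair are shown for their CpG positions, the letters in capitals, on GRCm38.p6: Crygd at chr1:65063391-65063690 and Cryga at chr1:65103314-65103613, both on the minus strand.
Crygd: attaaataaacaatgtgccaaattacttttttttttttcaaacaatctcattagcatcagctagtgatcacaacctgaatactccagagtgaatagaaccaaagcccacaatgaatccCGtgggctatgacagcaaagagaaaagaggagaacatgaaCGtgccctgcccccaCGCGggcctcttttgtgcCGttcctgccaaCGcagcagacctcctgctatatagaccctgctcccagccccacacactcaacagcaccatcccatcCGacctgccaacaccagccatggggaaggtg
Cryga: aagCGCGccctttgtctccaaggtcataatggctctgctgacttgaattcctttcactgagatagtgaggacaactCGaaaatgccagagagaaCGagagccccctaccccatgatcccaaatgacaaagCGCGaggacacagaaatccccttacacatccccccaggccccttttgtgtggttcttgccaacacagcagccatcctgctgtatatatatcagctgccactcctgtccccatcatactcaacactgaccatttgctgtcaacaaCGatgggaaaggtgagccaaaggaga
Each window held 7 CpG, against a median of 21 over the 10604 tested genes with a window. Among genes with a gap over 1 the median was 16 above and 17 below, whereas it was 18 in genes called higher and 24 in genes called lower. Compared base by base from the window start, with no alignment, 81 of 300 positions of the pair were equal. Such a count misses stretches shared at shifted positions.

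Pluripotency genes showed 1 called member of 36 (2.78%), beside 2.15% called higher and 2.12% lower over all genes. Dppa3, a maternal factor that protects DNA methylation, had 1057, 1043 and 236, against 30.7 in B6 and 32.4 in v6.5, with NZB nearest to the others (log2 difference 4.30 ± 0.65, adjusted p = 0.0247). Core factors were placed on both sides. Pou5f1 and Zfp42 lay above, Zfp42 with 2426, 10114 and 3279, against 500 and 1783, Nanog lay below with 1943, 6877 and 3805, against 8173 and 9084, and Sox2 overlapped. Tet1 and Tet2, which oxidise methylcytosine, lay below, Tet1 with 1903, 3462 and 4686, against 12840 and 7405, and Klf5 with 207, 699 and 667, against 2269 and 1507 (adjusted p = 0.0665 and 0.0709). Over the list 5 lay above and 8 below, beside 24.0% and 22.8% over all genes. The median was -0.30, which the deposited scale turned to 0.17. Of 21 tested genes of the 2-cell-like state, a rare state that resembles the early embryo, 12 lay above, 0 below and 0 were called, and 10 of the 12 had passed the filter only through the prone libraries. Their sums were 3329, 3054 and 398, against 230 and 359, so NZB was close to the other libraries: Gm13119 had 409, 372 and 52.5, against 22.3 and 14.8 (adjusted p = 0.0678).

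Lineage markers gave scattered calls. Eomes, a T-box factor of mesendoderm and trophoblast, fell to 32.2, 63.2 and 78.7, against 484 in B6 and 425 in v6.5 (log2 difference -3.04 ± 0.44, adjusted p = 0.0232). Olig2 and Olig1, neighbouring regulators of oligodendrocytes and motor neurons, fell together: Olig2 had 1.53, 0.481 and 4.2, against 415 and 66.1, and Olig1 had 4.59, 2.40 and 2.09, against 109 and 62.0 (adjusted p = 0.032 and 0.029). B6 was the higher of the other libraries in both. Fgf10, a growth factor of lung and limb buds, fell to 0, 0.481 and 9.44, against 315 and 264 (log2 difference -6.86 ± 1.04, adjusted p = 0.026). Sparc, a matrix protein of parietal endoderm, fell to 2648, 1743 and 1611, against 8608 and 5219 (adjusted p = 0.0366), and Krt19 to 21.4, 14.9 and 17.8, against 75.3 and 131 (adjusted p = 0.0472). Other members of these lists lay above without passing the test. Gata4 of primitive endoderm had 168, 69.5 and 93.4, against 57.1 and 47.2. Cldn4 of simple epithelium had 3260, 1868 and 1712, against 725 and 1045, and Nes of neuroectoderm had 720, 904 and 1505, against 295 and 698. A pair of epithelial transcription factors rose. Grhl2 had 854, 771 and 275, against 30.7 and 27.0, and Tfap2c had 804, 1132 and 632, against 362 and 216 (log2 differences 4.25 ± 0.51 and 1.57 ± 0.34, adjusted p = 0.0175 and 0.05, the second just under the threshold). Of 9 mesendoderm, 8 neuroectoderm, 18 primitive endoderm and 19 trophoblast genes tested, 1, 1, 3 and 5 lay above and 3, 3, 3 and 5 below. Over all genes 24.0% lay above and 22.8% below, and 2.15% were called higher and 2.12% lower. The median log2 differences were -0.95, -0.67, 0.55 and 0.38 in that order of lists.

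Signalling genes of the ERK pathway, which 2i medium blocks at MEK, were mixed. Dusp4, a phosphatase of ERK, had 207, 185 and 226, against 13.9 in B6 and 22.9 in v6.5 (log2 difference 3.45 ± 0.40, adjusted p = 0.0175), and Bcl2l11, the death-promoting BIM that ERK restrains, rose to 389, 408 and 294, against 149 and 137 (log2 difference 1.32 ± 0.29, adjusted p = 0.0492). Other genes of the list lay on either side without passing. Spry4 lay below with 0, 7.19 and 19.9, against 39.0 and 67.4, as did Myc with 1.53, 8.14 and 44.1, against 141 and 70.1. Dusp5, another phosphatase of ERK, lay above with 53.6, 66.6 and 58.8, against 25.1 and 20.2. Of 20 tested 3 lay above and 8 below, beside 24.0% and 22.8% over all genes. Of these 20, 2 were called higher and 0 lower, beside 2.15% and 2.12% over all genes, and the median was -0.89. No gene was called among 17 Wnt targets or 35 TGF-beta, BMP and Nodal genes, with 1 and 3 above and 4 and 6 below.

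Ribosomal protein genes made the largest number of calls of the lists described. Rpl37, of the large subunit, had 1326, 1341 and 1215, against 76.7 in B6 and 82.2 in v6.5. Both groups were tight and far apart, with a log2 difference of 4.01 ± 0.23 (adjusted p = 0.00309). Rpl13 had 4511, 3882 and 2624, against 354 and 594, and Rps14 had 8966, 6663 and 3177, against 928 and 1008 (log2 differences 2.96 ± 0.33 and 2.57 ± 0.41, adjusted p = 0.0161 and 0.0295). In all, 15 of 73 tested were called higher and 0 lower, beside 2.15% and 2.12% over all genes. Of the 73, 38 lay above and 9 below, beside 24.0% and 22.8% over all genes, and the median was 0.84. Members did not all move: Rps18 lay below with 33.7, 32.6 and 56.6, against 141 and 129 (adjusted p = 0.0649). Pseudogene copies make their reads uncertain, with 71.0% of the stretches of Rps3a1 and 37.9% of those of Rpl7a found elsewhere. Respiratory chain genes leaned the same way, with 5 of 55 called higher and 1 lower, 28 above and 6 below, and a median of 0.42. Ndufa2 of complex I had 574, 593 and 372, against 121 and 128, and Cox5a of complex IV had 2741, 3454 and 2153, against 921 and 902 (adjusted p = 0.0262 and 0.0295). Cox6c went the other way, at 1213, 856 and 1509, against 2995 and 2893 (adjusted p = 0.047).

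Among the lower genes were abundant transcripts of general cell functions. Hspa8, the constitutive HSC70 chaperone (chr9:40609356-40613282), had 513, 1031 and 672, against 10521 in B6 and 8722 in v6.5, which was 13.5-fold lower (log2 difference -3.76 ± 0.32, adjusted p = 0.00786), and 38.6% of its stretches occur in other genes. Polr2a, the largest subunit of RNA polymerase II, and Wnk1, a kinase of ion transport, were chosen after their values were seen. Polr2a had 828, 623 and 819, against 4715 and 3397, and Wnk1 had 3393, 2595 and 4256, against 16452 and 15036 (adjusted p = 0.0143 and 0.0175). Both were several times lower in every prone library. Transcript length and base composition moved with the comparison. The longest annotated transcript had a median of 2416 bases in genes above with a gap over 1 (452 with a length) and 3262 in those below (326), beside 3368 over 12802 genes tested, and the median GC content was 53.2% above, 48.2% below and 50.0% over all. Of 645 genes with a longest transcript of up to 1000 bases 33.2% lay above and 16.9% below, whereas of 756 genes over 8000 bases 11.4% lay above and 34.0% below. The part of length and base composition in the counts of any list was not tested.

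**Figure D4:**
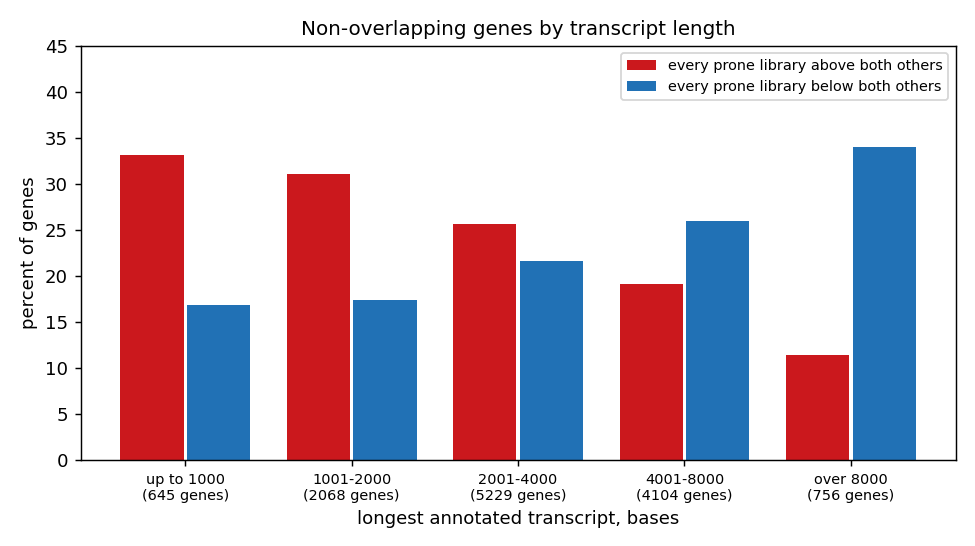
Percent of genes in which every prone library lay above (red) or below (blue) both other libraries, by the length in bases of the longest transcript annotated for the gene. The red bars shrink from 33.2% in the shortest class to 11.4% in the longest, and the blue bars grow from 16.9% to 34.0%.

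Replication-dependent histone genes were called in both directions. Hist1h3f, an H3 gene of the chromosome 13 cluster, had the widest gap of any called gene, with 4.59, 2.88 and 4.2, against 712 in B6 and 1337 in v6.5 (log2 difference -7.66 ± 0.51, adjusted p = 0.00309). Hist1h2bg had 3.06, 1.92 and 7.34, against 167 and 245, and Hist1h2bf had 4.59, 1.92 and 3.15, against 80.8 and 106 (adjusted p = 0.0186 and 0.0244). Near zero in all prone libraries, these 3 were well expressed in both others. Hist1h2bn went up, with 194, 223 and 191, against 40.4 and 39.1 (adjusted p = 0.0231). Of 48 tested 4 lay above and 16 below, beside 24.0% and 22.8% over all genes. Called were 3 higher and 5 lower, beside 2.15% and 2.12% over all genes. The median was -0.44, which the deposited scale turned to 0.03. Histone messages mostly lack poly(A) tails and the RNA was poly-dT selected, and 49.3% to 65.8% of the stretches of these 3 lower genes and 86.4% of those of Hist1h2bn occur in other genes, so both limits touch these values.

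Imprinted genes, expressed from 1 parental copy, were called in both directions. Meg3 and Rian, maternal noncoding RNAs of 1 chromosome 12 domain, rose together: Meg3 had 1847, 1329 and 1431, against 510 in B6 and 284 in v6.5, and Rian had 1213, 2662 and 1887, against 598 and 620 (log2 differences 1.99 ± 0.31 and 1.58 ± 0.33, adjusted p = 0.0271 and 0.047). Igf2r, which clears IGF2, rose to 7585, 6820 and 7017, against 2793 and 1979 (adjusted p = 0.0244), and Usp29 to 303, 359 and 463, against 123 and 93.0 (adjusted p = 0.0366). Plagl1, a growth-limiting zinc finger, fell to 1213, 1284 and 1668, against 3097 and 2759 (adjusted p = 0.0476). Nnat was almost without reads at 3.06, 0 and 6.29, against 66.9 and 67.4, yet just missed the threshold (adjusted p = 0.0503). Of 38 tested, 4 were called higher and 1 lower, beside 2.15% and 2.12% over all genes. On each side lay 11, not far from the 24.0% above and 22.8% below over all genes, and the median was 0.04.

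Detoxification and stress genes completed the lists. Gstm1 and Gstm5, glutathione transferases of 1 cluster, rose: Gstm1 had 1037, 637 and 906, against 287 in B6 and 204 in v6.5, and Gstm5 had 351, 183 and 154, against 46.0 and 40.4 (adjusted p = 0.0325 and 0.0418). Gstp2 fell to 53.6, 55.1 and 72.4, against 308 and 191 (adjusted p = 0.0418), with 54.3% of its stretches shared. Over 46 tested genes 3 were called higher and 1 lower, beside 2.15% and 2.12% over all genes. On each side lay 11, close to the 24.0% above and 22.8% below over all genes. Of 30 stress genes 10 lay above and 2 below, with Hspa8 the 1 call, and of 21 p53 targets 9 lay above, 0 below and 0 were called. Atf3 and Ddit3, transcription factors of the integrated stress response, lay above, Ddit3 with 672, 332 and 154, against 69.7 and 68.7 (adjusted p = 0.0685).

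Y-linked genes and Xist separated the groups as well. Eif2s3y, a Y-linked translation factor, had 436, 355 and 183, against 9.76 in B6 and 25.6 in v6.5, and Ddx3y, a Y-linked RNA helicase, had 394, 385 and 245, against 72.5 and 52.6 (adjusted p = 0.0215 and 0.024). Uba1y had 56.7, 77.1 and 64.0, against 1.39 and 2.70. Uty, another Y-linked gene, overlapped, with 87.3, 139 and 103, against 103 and 32.4, so Y-linked reads were present in all 5 libraries. Xist, the RNA of the inactive X, lay below, with 1.53, 2.40 and 9.44, against 75.3 and 14.8 (adjusted p = 0.121).

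Chromosomes differed in how their genes were placed. On chromosome 6, 239 of 626 tested genes lay below in all prone libraries (38.2%) and 80 above (12.8%), and 44 were called lower (7.03%), beside 22.8%, 24.0% and 2.12% over all genes. The median log2 deviation of its genes from the mean of the 5 libraries was -0.25 in NOD1, -0.20 in NOD5 and -0.07 in NZB, against 0.20 in B6 and 0.33 in v6.5. Both other libraries thus stood above all 3 prone libraries along the chromosome. As each deviation is taken from the mean of the same 5 libraries, these values cannot tell which group moved. Nod1, Nanog, Wnk1 and Dppa3 lie there, Dppa3 against the trend. Chromosome 8 leaned up, with 197 of 728 above (27.1%) and 80 below, but there the deviation was -0.43 in B6 alone, with 0.18, 0.26 and -0.10 in NOD1, NOD5 and NZB and 0.14 in v6.5. On chromosome 13, 28.7% of genes lay below, and on chromosome 18, 33.5%. Whether these lines differ in the number of copies of a chromosome was not tested.

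**Figure D5:**
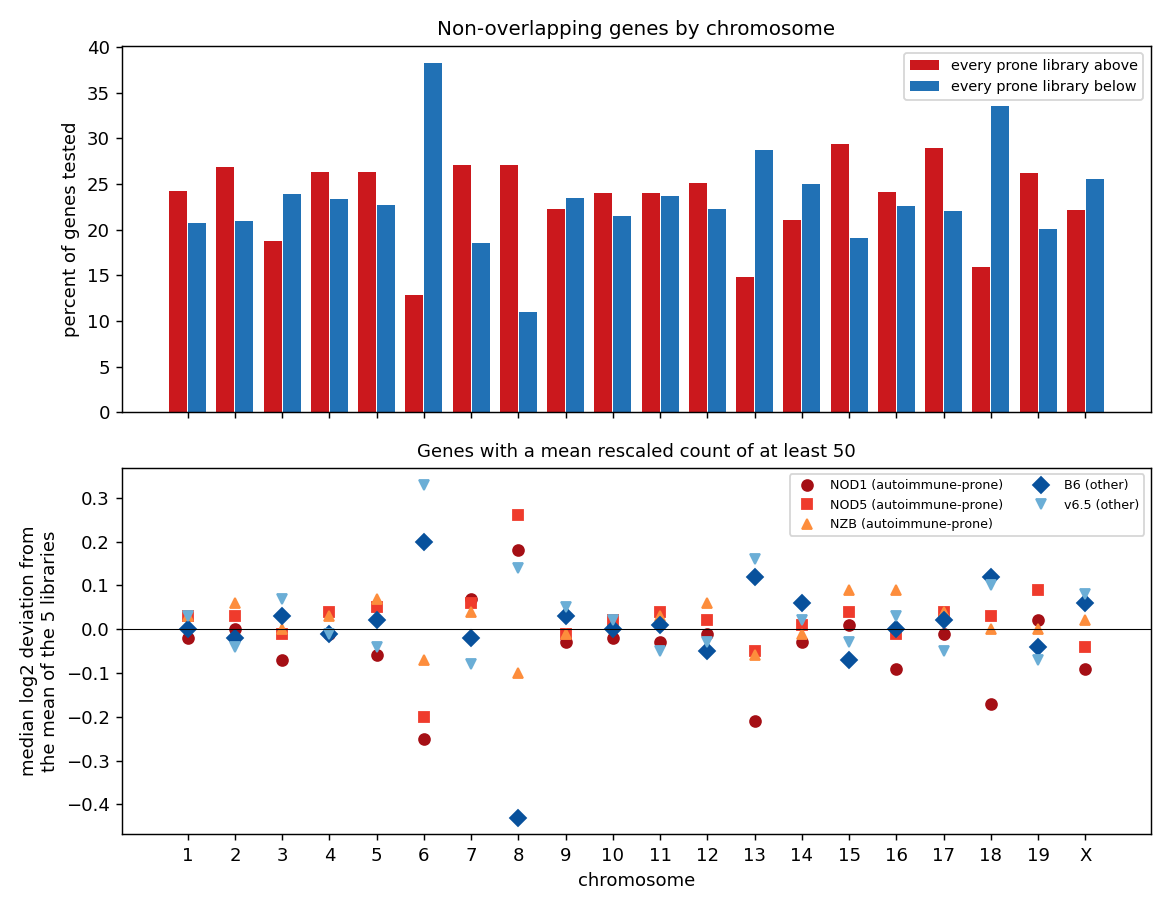
Upper panel, percent of tested genes of each chromosome in which every prone library lay above (red) or below (blue) both others. Lower panel, median log2 deviation of each library from the mean of the 5 libraries, over genes with a mean rescaled count of at least 50. On chromosome 6 the 3 prone libraries lie between -0.25 and -0.07 and the others at 0.20 and 0.33, and on chromosome 8 B6 stands alone at -0.43.

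Some neighbouring genes separated together. Runs of at least 3 neighbouring tested genes with gaps over 1 numbered 7 above and 3 below. On chromosome 2, Prnp, the prion protein, its overlapping transcript Prn, and Prnd formed one (from 131735664 on mm9): Prnp had 2799, 904 and 489, against 132 in B6 and 64.7 in v6.5 (adjusted p = 0.0418), while 95.5% of the stretches of Prn and 95.9% of those of Prnd are shared, so their reads are uncertain. Hoxd8, Hoxd4 and Hoxd1, body-axis genes of 1 cluster, formed another with 0 calls, Hoxd8 having 78.1, 53.7 and 141, against 11.1 and 22.9. Gpat2 stood with Fahd2a and Kcnip3, and imprinted Usp29 with Zim3 and Aurkc, a meiotic kinase at 173, 124 and 37.8, against 5.58 and 12.1. Below, the zinc finger genes Gm14326, Etohi1 and Zfp931 of chromosome 2 were all called, Etohi1 with 93.4, 181 and 216, against 924 and 539 (adjusted p = 0.0421). The other 2 runs below were on chromosome 6: 2700089E24Rik, Etv6 and Bcl2l14 with 0 calls, and Cmas, St8sia1 and C2cd5 with 2. Cmas, an enzyme of sialic acid activation, had 464, 547 and 454, against 1277 and 1388 (adjusted p = 0.0266). With any gap above 0 the longest run was 13 protocadherin and neighbouring genes on chromosome 18, all below, of which 1 was called, and protocadherins of a cluster share constant exons and therefore reads.

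NZB lay nearer to the other libraries than both NOD lines did in many of these genes. Of the 3215 genes above, NZB was below both NOD lines in 1442 (44.9%), between them in 1047 (32.6%) and above both in 726 (22.6%). Of the 3056 below, NZB was above both NOD lines in 1433 (46.9%) and below both in 569 (18.6%). With a gap over 1 it was the nearest prone library to the others in 47.2% of genes above and 47.8% of those below. Dppa3, Crygd and Gm13119 were of this kind, while Ly6e, Usp29 and Magea4 were highest in NZB. Between the other libraries, v6.5 was the nearer to the prone lines in 53.6% of genes above and 53.5% of those below.

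At the edge of the rule the groups barely separated. Phkg1, a subunit of phosphorylase kinase, was just inside above, with 126, 79.5 and 126, against 55.8 in B6 and 79.5 in v6.5, and Ube2f just inside below, with 132, 170 and 195, against 195 and 260. Ssr1 was just outside below, with 2516, 2847 and 3493, against 4034 and 3493. Just outside above were BB287469 and Gm4027, near copies of each other with no read in NZB or in either other library, at 47.5 and 35.5 in NOD1 and NOD5 for BB287469. Besides Xlr4a, 5 genes had reads in every prone library and none in the others: Tdpoz3, Nxf2, Gm11487, Zfy2 and Olig3, of which Olig3 had 1.53, 19.6 and 97.6.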

How the data were processed

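RNA of 5 mouse ES cell libraries was sequenced as poly-dT selected, strand-kept single-end reads. The authors aligned them to mm9 with STAR (2.2.0c in the submitters' processing notes) and counted reads over gene exons by strand with HOMER. Per the file headers and the values, the deposited signal is the number of reads in a gene times 1 factor per library, which gives every library an equal total. Dividing by that factor gave whole reads, to within 0.05, for 100% of the values under 3000. Other columns hold the authors' fold changes, p-values and FDR and were left out. Of 24016 genes, 27 have symbols that had become dates, and these are not named.

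As the values are not raw counts, limma-trend was fitted to log2(value / TMM factor + 1) for 3 prone against 2 other libraries with no covariate, over the 13421 genes that filterByExpr kept (1.04 CPM). Fold changes on this scale understate low genes. P-values were adjusted over these genes (Benjamini-Hochberg), and those under 0.05 were called. The gap is the difference in log2(value + 1) between the nearest libraries of the groups. Ratios of pooled reads carry exact intervals that cover counting error only. Tool versions were R 4.3.3 with limma 3.58.1, edgeR 4.0.16 and DESeq2 1.42.0. The scripts were tested on simulated data. Genes were named by rule: the 15 widest gaps among calls in each direction, called members of each list and up to 4 more per list, the edges of the separation, and runs of neighbours. Outside the rule, and chosen after their values were seen, were Pou5f1, Sox2, Nanog, Zfp42, Ptprc, Col1a1, B2m, H2-K1, H2-D1, Ciita, Tap1, Uty, the genes without reads in 1 group and those so described in the text. The comparison, its members and the lists were chosen with earlier results of these data known. Alternatives changed the scaling, filter, pseudocount, tool and weight of the NOD lines, or left out 1 library. Shared stretches of 50 bases and transcript lengths come from GENCODE, and promoters from RefSeq on GRCm38.p6.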

Additional observations from a re-analysis of the deposited data

How the results depend on the processing

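Against 288 genes called higher and 284 lower, the deposited scale called 1425 higher and 226 lower. With no filter on low values, 14 were higher and 4 lower (21372 genes tested). With the NOD lines averaged, 61 were higher and 77 lower. By edgeR's quasi-likelihood test 161 were higher and 197 lower, and by DESeq2 1130 and 1022. Leaving out 1 library gave 0 to 692 higher and 0 to 697 lower, with 3833 to 4539 genes above and 3625 to 4563 below. Each of these fits has 1 sample less. On the deposited scale 803 genes lay below in all prone libraries, against 3056. DESeq2 size factors, a mean of at least 50, and pseudocounts of 0.5 or 10 kept all counts within 1.5 times. Of the 113 called genes chosen for naming, 113 lost the call without B6, 111 without v6.5, 108 without NOD5, 73 without NOD1, 98 without the filter, 58 with the NOD lines averaged, 19 by edgeR and 0 by DESeq2. Their log2 differences stayed near those with all libraries, with medians of 96.7% to 103% of them when 1 library was left out. No paired analysis was possible because no replicate number ties a prone library to another one. With 3 and 2 libraries a group, 1 unusual library cannot be recognised within its group.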
